A study of Mus musculus with 6 samples.

Results

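The genes for the protein subunits of the mitochondrial ribosome were examined in bulk RNA sequencing of 6 CT26 tumors. Members were the protein-coding genes of the deposited count table with symbols that begin with Mrpl or Mrps and a number, which gave 78 of the 23122 genes in the table. CT26 is a murine colorectal carcinoma line of BALB/c origin. It was grown under the skin of the flank of female BALB/c mice aged 6 to 8 weeks, and treatment was assigned at random once tumors had a volume of 100 to 200 mm3. Of the 6 tumors, 3 came from mice given TP-18 by mouth at 50 mg/kg daily for 3 weeks and 3 from mice given vehicle for the same 3 weeks. No genotype other than the BALB/c strain is labelled for either group. TP-18 is named by its code alone. All tumors came from 1 cell line, and the host immune system and stroma contribute RNA to each sample. Whether the tumors of a group grew in separate mice is not labelled, so p-values cover the spread between these samples only, and that spread may be technical.

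The mitochondrial ribosome translates the few messenger RNAs of the mitochondrial genome, all of which encode subunits of the respiratory chain and ATP synthase. Its ribosomal RNAs come from the mitochondrial genome, while its proteins are encoded in the nucleus, made in the cytosol and imported. The large subunit forms peptide bonds and holds the exit tunnel, and the small subunit reads the message. Many of these proteins belong to families shared with bacterial ribosomes, and others were added during the evolution of mitochondria.

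Libraries were deep and of similar size, with 34813482 to 36489081 counts each. The lowest count of any member in any tumor was 242, and all 78 members passed the filter on low counts. Summed over the members, the share of all counts was 0.267%, 0.250% and 0.273% in the TP-18 tumors, against 0.281%, 0.255% and 0.258% in the vehicle tumors. The groups overlapped in this share, with vehicle tumor 1 highest and TP-18 tumor 2 lowest. Marker lists of other cell types differed between the groups: all 11 T cell markers, 5 of 10 myeloid markers and 6 of 10 skeletal muscle markers were higher in TP-18 tumors, 4 of 5 tested red blood cell markers were lower, and none of 8 fibroblast markers passed edgeR's test, with 2 at an unadjusted p under 0.05, 2 called by DESeq2 and 1 by limma-voom. In CPM (counts scaled to library totals), the summed T cell markers ran from 92.6 to 103.9 in TP-18 tumors and from 15.8 to 32.1 in vehicle tumors. The myeloid markers ran from 2947 to 3912 in TP-18 tumors and from 1341 to 2016 in vehicle tumors, and the muscle markers from 59.0 to 125.4 in TP-18 tumors and from 10.0 to 29.6 in vehicle tumors. The red cell markers ran from 15.5 to 35.02 in TP-18 tumors and from 66.2 to 362.3 in vehicle tumors, and the fibroblast markers from 2860 to 4386 in TP-18 tumors and from 2341 to 5941 in vehicle tumors. Of 10 epithelial markers, checked because CT26 is labelled a colorectal cancer line, Krt20 had 6838 to 8221 counts in TP-18 tumors and 8406 to 12016 counts in vehicle tumors and was the 1 called, as lower. Epcam had at most 24 counts in any library, Vil1 at most 8 and Cldn7 at most 4, and Cldn7 was at 0 in 5 libraries, Epcam in 2 and Vil1 in 2. The epithelial markers did not move one way: Cdh1 had 131, 137 and 195 counts in TP-18 tumors, against 37, 68 and 77 counts in vehicle tumors, at a log2 change of 1.15 ± 0.34 (edgeR adjusted p = 0.0647). Only 4 of the 10 passed the filter, DESeq2 called 2 higher and 3 lower of the 8 it tested, and with library totals 1 was higher and Krt20 was not called. Their summed level, nearly all of it Krt20, was 206.4 to 248.5 CPM in TP-18 tumors and 262.5 to 354.8 CPM in vehicle tumors. Among 8 proliferation markers, Top2a was higher in TP-18 tumors. The part of cell composition in the results on the members was not tested, and in these bulk samples fewer cells of a type and less RNA per cell cannot be told apart.

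Levels are given first, per length, as the FPKM (fragments scaled to gene length and library size) deposited by the authors. Mean FPKM over the 6 tumors spanned 32.2-fold among the members, with a median of 20.5, and 57 of the 78 members averaged at least 10. The highest was Mrpl33, a short protein of the large subunit, with 107, 99.6 and 118 FPKM in TP-18 tumors and 99.5, 114 and 130 FPKM in vehicle tumors. It was followed by Mrpl52, a large-subunit protein with no bacterial counterpart, at 103 ± 7.90 FPKM in TP-18 tumors and 108 ± 11.1 FPKM in vehicle tumors (SD, n = 3 each). The third, Mrpl13, a large-subunit protein of a bacterial family, averaged 90.2 ± 5.57 FPKM in TP-18 tumors and 92.7 ± 1.89 FPKM in vehicle tumors. In FPKM the groups overlapped for each of these 3 genes. With TMM scaling (trimmed mean of M values, used for the tests below), every TP-18 tumor lay below every vehicle tumor for Mrpl52 and Mrpl13.

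At the low end stood Mrps25, a small-subunit protein specific to mitochondria, with 3.99, 3.38 and 3.98 FPKM in TP-18 tumors and 3.59, 2.81 and 3.01 FPKM in vehicle tumors. Mrpl1, a protein of the mobile stalk beside the exit site for transfer RNA, averaged 3.71 ± 0.0831 FPKM in TP-18 tumors and 3.64 ± 0.528 FPKM in vehicle tumors. Mrpl4, a protein that lines the exit tunnel, averaged 4.64 ± 0.0699 FPKM in TP-18 tumors and 4.38 ± 0.449 FPKM in vehicle tumors. The order of the levels was gradual: of the 77 pairs of neighbours, only 2 had ranges over the 6 tumors that did not meet.

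The low place of Mrpl4 depended on the gene length the authors divided by. That length, recovered from the ratio of the 2 deposited tables, ran from 412 to 8707 bases over the members and was 8452 bases for Mrpl4, whose longest coding transcript in GENCODE M21 has 1288 bases. Per kilobase of that transcript, Mrpl4 had 29.6 CPM and moved from place 76 to place 25 of 78. Mrpl14 moved in the same way, with a divisor of 7525 bases against a transcript of 645 bases, and in 10 members the divisor was over 2 times the longest coding transcript. Mrpl33 and Mrpl52 were highest on both scales, at 108.5 and 93.8 CPM per kilobase of transcript. Mrpl47 was lowest on the transcript scale, at 3.04, where Mrps25 had 3.46 and Mrpl1 4.75. Comparisons of 1 gene between tumors do not depend on this length.

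**Figure D1:**
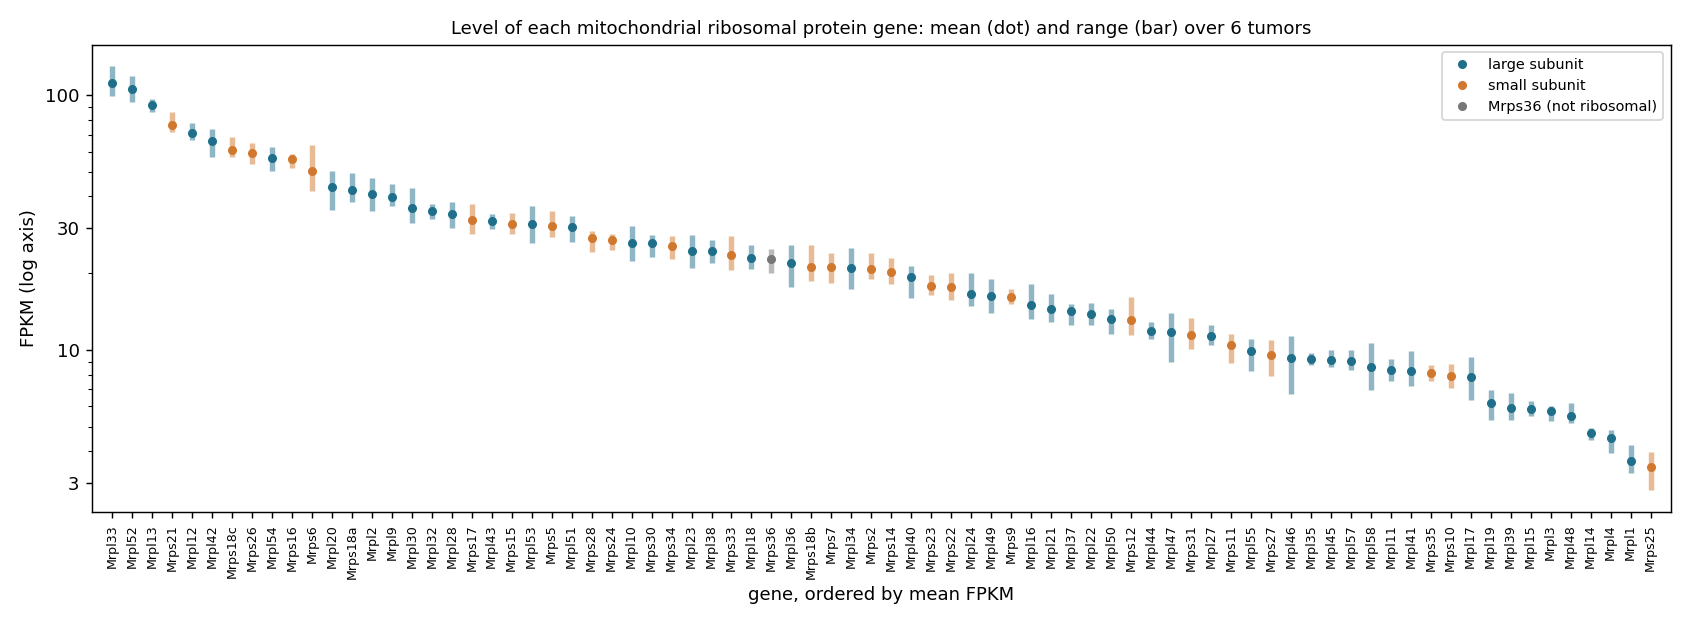
FPKM of the 78 members (log axis), ordered by mean; dots are means and bars the range over all 6 tumors, coloured by subunit. The levels fall without a step from Mrpl33 at 111 FPKM to Mrps25 at 3.46 FPKM, and most neighbouring bars meet.

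Between tumors of the same group the members varied little. The pooled standard deviation of log2 CPM within groups had a median of 0.107 over the members, against 0.171 over all tested genes, and 67 members lay below 0.171. The tested genes were not matched to the members by count level, so a part of that level in this difference was not tested. The highest tumor of a group exceeded the lowest by a median of 1.12-fold in the TP-18 group and 1.17-fold in the vehicle group. The widest spreads were 1.37-fold among TP-18 tumors, for Mrpl20, and 1.52-fold among vehicle tumors, for Mrpl46.

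Expression was then compared between TP-18 and vehicle tumors with edgeR's quasi-likelihood F test over all 14189 tested genes, on counts scaled by TMM (trimmed mean of M values), with a call at a Benjamini-Hochberg adjusted p under 0.05. The mitochondrial ribosomal genes changed little. By this test 5 of the 78 members were lower in TP-18 tumors, Mrps18b, Mrpl2, Mrpl23, Mrpl30 and Mrps30, by 20.3% to 27.0%, and their share of 6.41% was near the 5.26% of all tested genes called lower (12.4% in either direction). None was called higher, by edgeR, DESeq2 or limma-voom, and none was higher at an unadjusted p under 0.05, while 7.09% of all tested genes were called higher by edgeR. At an unadjusted p under 0.05, 21 members were lower, where 14.6% of all tested genes were.

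The first called member, Mrps18b, encodes a small-subunit protein, 1 of the 3 mammalian relatives of bacterial protein S18 along with Mrps18a and Mrps18c. Its gene lies on chromosome 17 at 35910379 to 35916389, on the minus strand (GRCm38, GENCODE M21). It had 28.3, 28.9 and 30.3 TMM-scaled CPM in TP-18 tumors, against 40.9, 37.9 and 36.4 CPM in vehicle tumors. Every TP-18 tumor lay below every vehicle tumor, and the log2 change was -0.40 ± 0.08 (SE; edgeR adjusted p = 0.0248). The paralog Mrps18a, which sits in the large subunit in spite of its name, changed by -0.21 ± 0.09 with an adjusted p of 0.182 in edgeR, and Mrps18c, of the small subunit, by -0.21 ± 0.11 with an adjusted p of 0.226.

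Mrpl2 encodes a large-subunit protein that lies next to the site of peptide bond formation, and its gene lies on chromosome 17 at 46646229 to 46650139, on the plus strand. It had 37.3, 39.2 and 42.6 CPM in TP-18 tumors, against 53.0, 55.5 and 47.7 CPM in vehicle tumors. With TMM the groups did not overlap, and the log2 change was -0.39 ± 0.09 (edgeR adjusted p = 0.0326). In FPKM, which uses library totals, TP-18 tumor 3 (40.7) lay above vehicle tumor 3 (39.1).

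Mrpl23, whose bacterial counterpart stands at the mouth of the exit tunnel, lies on chromosome 7 at 142532686 to 142540747, on the plus strand. Its values were 41.2, 36.8 and 39.3 CPM in TP-18 tumors, against 47.2, 54.3 and 49.2 CPM in vehicle tumors. Here too the groups were apart, with a log2 change of -0.36 ± 0.09 (edgeR adjusted p = 0.0359).

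The largest change among the members was that of Mrpl30, a large-subunit protein of a bacterial family, on chromosome 1 at 37890477 to 37898535, on the plus strand. TP-18 tumors had 73.6, 74.99 and 69.3 CPM, against 83.1, 103.9 and 111.3 CPM in vehicle tumors. The groups did not overlap, although vehicle tumor 1 stood closer to the TP-18 tumors than to the other vehicle tumors, and the log2 change was -0.45 ± 0.11 (edgeR adjusted p = 0.0381).

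Mrps30 encodes a protein that was named for the small subunit and is found in the large one, with no counterpart in bacteria, and its gene lies on chromosome 13 at 118378381 to 118387252, on the minus strand. It had 34.98, 40.4 and 36.7 CPM in TP-18 tumors, against 44.9, 46.8 and 48.9 CPM in vehicle tumors. All TP-18 values were the lower ones, and the log2 change was -0.33 ± 0.09 (edgeR adjusted p = 0.0456).

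Most of these calls were lost when a library was left out. No member was called lower without TP-18 tumor 1, without TP-18 tumor 2, without TP-18 tumor 3 or without vehicle tumor 2. In those fits 0.766% to 1.49% of all tested genes were called lower, against 5.26% in the fit on all tumors. Without vehicle tumor 3 there were 4 calls, of which 2 (Mrps18b and Mrpl2) were shared with the fit on all tumors. Without vehicle tumor 1 there were 6, of which 4 (Mrps18b, Mrpl23, Mrpl30 and Mrps30) were shared. Of all tested genes, 2.985% were called lower without vehicle tumor 3 and 6.99% without vehicle tumor 1. With library totals in place of TMM factors, a scaling tried after seeing the data, no member was called, where 1.89% of all tested genes were called lower. The log2 changes of the 5 then ran from -0.30 for Mrpl30 to -0.18 for Mrps30, with adjusted p-values in edgeR from 0.0676 to 0.200.

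**Figure D2:**
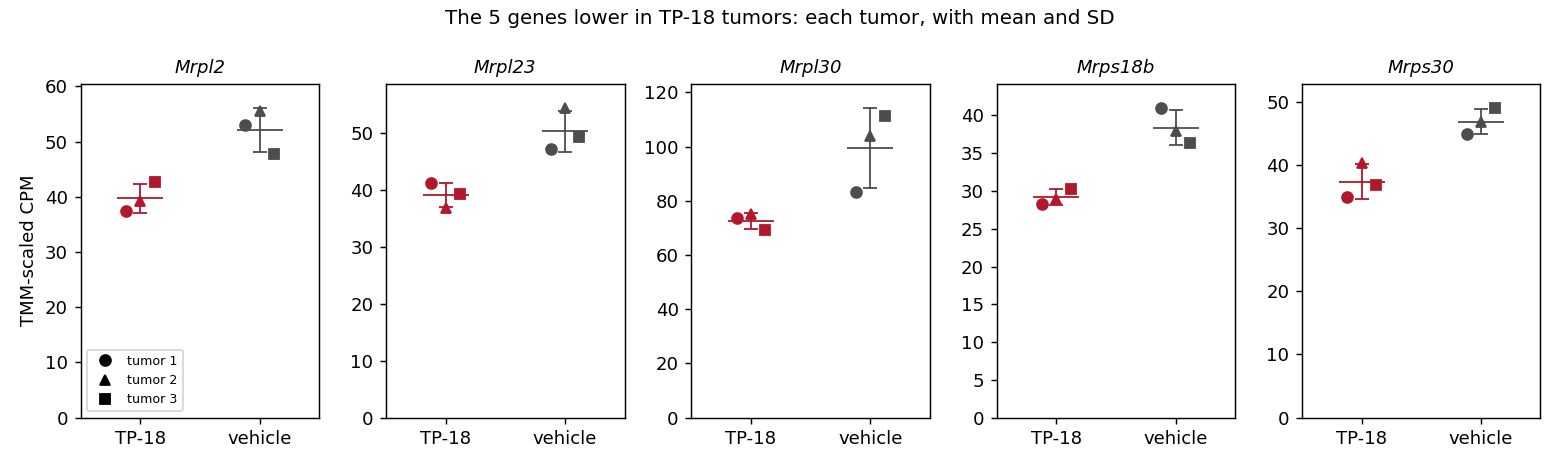
TMM-scaled CPM of the 5 members lower in TP-18 tumors; symbols are single tumors, horizontal marks with bars are means ± SD (n = 3 per group), and each axis starts at 0. In every panel the 3 TP-18 tumors lie below the 3 vehicle tumors, and Mrpl30 shows the widest spread among vehicle tumors.

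The sequences just before the start of the 5 called genes are shown because promoters of mitochondrial ribosomal genes are known to hold sites for the nuclear respiratory factors NRF1 and GABPA, and to let a reader see which hold such letters. They are RefSeq sequences of build GRCm38.p6, written in the direction of the gene, with the letters of a searched motif in capitals. Positions count back from the RefSeq start, and bases annotated as untranslated sequence of a gene were left out, except for the 27-base site of Mrpl30, which lies in the first exon of its neighbour Mitd1. The stretches are chr17:35916599-35916690 (minus strand) for Mrps18b, chr17:46646023-46646220 (plus) for Mrpl2, chr7:142532782-142533011 (plus) for Mrpl23, chr1:37890385-37890411 (plus) for Mrpl30 and chr13:118387253-118387472 (minus) for Mrps30.
Mrps18b: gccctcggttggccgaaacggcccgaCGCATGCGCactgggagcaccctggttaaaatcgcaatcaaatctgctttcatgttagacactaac
Mrpl2: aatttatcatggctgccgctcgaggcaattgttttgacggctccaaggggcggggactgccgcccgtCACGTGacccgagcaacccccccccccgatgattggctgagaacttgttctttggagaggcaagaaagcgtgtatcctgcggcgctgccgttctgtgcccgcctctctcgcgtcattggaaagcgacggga
Mrpl23: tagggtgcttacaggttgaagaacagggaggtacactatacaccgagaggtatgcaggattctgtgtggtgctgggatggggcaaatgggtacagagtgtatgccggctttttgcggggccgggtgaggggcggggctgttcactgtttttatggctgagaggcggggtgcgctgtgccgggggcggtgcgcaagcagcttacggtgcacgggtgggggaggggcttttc
Mrpl30: gacgccgctGCGCCTGCGctgtcttct
Mrps30: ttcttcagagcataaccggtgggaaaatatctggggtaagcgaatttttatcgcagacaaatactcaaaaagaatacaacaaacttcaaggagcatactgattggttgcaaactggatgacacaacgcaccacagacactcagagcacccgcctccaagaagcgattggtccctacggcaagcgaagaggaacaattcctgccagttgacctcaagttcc

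The capitals in Mrps18b, which begin at position -224, and those in Mrpl30, which begin at -83, match the NRF1 motif GCGCNTGCG on one of the strands. The capitals in Mrpl2, at -131, are the E-box CACGTG, a motif bound by MYC and other factors. No searched motif was found in the 250 bases before the RefSeq starts of Mrpl23 and Mrps30. The RefSeq start of Mrpl23 lies inside its GENCODE span, which begins at 142532686. Its printed stretch therefore comes after the GENCODE start. For Mrpl2 the first of 3 starts in the table was used.

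Over the members with a promoter in the RefSeq table, 69 of 78, the 250 bases before the start were searched on both strands for 4 motifs. The NRF1 motif was found in 15 of 69 (21.7%), against 10.7% of 11210 tested genes and 5.40% of 27025 promoters in the table. The motif CCGGAAG, bound by GABPA and other ETS factors, was found in 17 (24.6%), against 13.2% and 7.05%. The YY1 motif ATGGCGG was found in 1 (1.45%), against 3.63% and 2.19%, and the E-box CACGTG in 5 (7.25%), against 8.11% and 6.05%. NRF1 and ETS motifs occurred together in 3 members, and 35 had none of the 4 motifs. The matches are a description of letters, and the 5 called members are too few to compare with the rest: 2 of 5 held the NRF1 motif, as did 13 of the 64 members not called.

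The genes were spread over 17 chromosomes, with 11 on chromosome 11 and 8 on chromosome 17. Head-to-head partners were counted unless the genes overlapped at their starts beyond a set length, which left out Mrpl46 and Mrps11, members whose exons overlap. By this rule 23 of 78 members (29.5%) had a coding gene that started within 1000 bases on the other strand. The share was 11.6% of 12766 tested coding genes. Of the 22 such partners that were tested, 2 were higher and 1 was lower in TP-18 tumors. Next to Mrpl30, Mitd1 starts 66 bases away on the other strand and encodes a protein of cell division. It had 22.4, 21.4 and 21.3 CPM in TP-18 tumors, against 16.9, 15.1 and 14.6 CPM in vehicle tumors, a log2 change of 0.48 ± 0.10 (edgeR adjusted p = 0.0243). Mrpl30 and Mitd1, whose starts lie side by side, were thus called in opposite directions. The other higher partner was Pnpla7, a lysophospholipase gene beside Mrpl41, at 0.73 ± 0.19 (edgeR adjusted p = 0.0470), and the lower one was Fau, the gene of a cytosolic small-subunit protein beside Mrpl49, at -0.63 ± 0.12 (edgeR adjusted p = 0.0174). The partners of Mrps18b and Mrpl2 were Ppp1r10 at 0.15 and Klc4 at 0.11 on the log2 scale, both with edgeR adjusted p-values over 0.05. Whether the libraries keep strand is not given in the sources used here, so reads of overlapping genes on opposite strands may not be told apart. Exons of 28 members overlap those of a gene on the opposite strand, Mrps18b and Mrps30 among them. Exons of 8 members overlap those of a gene on the same strand, Mrpl33 and Mrpl53 among them, where strand would not separate the reads. Mrpl2, Mrpl23 and Mrpl30 have no such overlap on either strand.

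The other 73 members were not called. The largest negative changes among them were those of Mrpl53, a mitochondrial addition to the large subunit, and Mrpl16, a large-subunit protein of a bacterial family that contacts transfer RNA. Mrpl53 had 15.5, 18.1 and 17.3 CPM in TP-18 tumors, against 18.3, 22.5 and 24.8 CPM in vehicle tumors, a log2 change of -0.36 ± 0.14 (edgeR adjusted p = 0.116). Mrpl16 had 15.2, 15.2 and 14.6 CPM in TP-18 tumors, against 20.6, 20.7 and 16.3 CPM in vehicle tumors, a log2 change of -0.36 ± 0.12 (edgeR adjusted p = 0.0930). In both genes the groups stood apart with TMM but met in FPKM, which uses library totals. For Mrpl53, TP-18 tumor 2 (30.3 FPKM) lay above vehicle tumor 1 (29.4 FPKM). For Mrpl16, TP-18 tumor 1 (14.0 FPKM) lay above vehicle tumor 3 (13.2 FPKM).

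At the other end were Mrps25, at 0.13 ± 0.11 (edgeR adjusted p = 0.476), and Mrpl46, a mitochondrial addition to the large subunit, at 0.10 ± 0.19 (edgeR adjusted p = 0.754). The 3 Mrps25 values were 23.1, 19.9 and 22.6 CPM in TP-18 tumors and 21.9, 18.2 and 19.9 CPM in vehicle tumors, and the groups overlapped. Mrpl46 had 9.76, 8.98 and 10.9 CPM in TP-18 tumors and 11.5, 8.54 and 7.56 CPM in vehicle tumors. Vehicle tumor 1 held the highest Mrpl46 value and vehicle tumor 3 the lowest.

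Several members with well-described roles were named for those roles. Mrpl12, which forms the stalk that recruits translation factors, had 66.2, 65.0 and 71.6 CPM in TP-18 tumors and 72.9, 69.4 and 74.8 CPM in vehicle tumors, a log2 change of -0.10 ± 0.07 (edgeR adjusted p = 0.4185). Mrpl11, at the base of that stalk, changed by -0.04 ± 0.09 (edgeR adjusted p = 0.784). The groups overlapped for both genes of the stalk.

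Mrps12, a protein of the decoding centre, had 13.1, 11.6 and 14.6 CPM in TP-18 tumors and 16.8, 12.7 and 13.1 CPM in vehicle tumors, at -0.12 ± 0.15 (edgeR adjusted p = 0.639). Mrpl45, which holds the ribosome at the inner membrane, had 29.1, 29.6 and 27.3 CPM in TP-18 tumors, against 30.1, 36.0 and 35.1 CPM in vehicle tumors, at -0.24 ± 0.10 (edgeR adjusted p = 0.149). With TMM, Mrpl45 was the one of these genes whose groups did not overlap. In FPKM its groups met, with TP-18 tumor 2 (9.01) above vehicle tumor 1 (8.85). Mrps36, which carries a ribosomal name but is now known as a component of the alpha-ketoglutarate dehydrogenase complex, had 17.0, 17.2 and 13.8 CPM in TP-18 tumors and 16.9, 15.3 and 17.9 CPM in vehicle tumors, at -0.06 ± 0.13 (edgeR adjusted p = 0.789).

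The intervals of the TMM fit were narrow for most members. They cover the spread between these samples and not the choice of scaling, which moved the members' median from -0.11 to 0.03 with library totals. With TMM, the 95% interval of the change lay within 1.5-fold in either direction for 73 of the 78 and within 2-fold for all 78. Fitted changes ran from -0.45 to 0.13 on the log2 scale, and the middle of the distribution was narrow, with an interquartile range of 0.186 against 0.464 over all tested genes. This was not particular to the members: the range was 0.195 for oxidative phosphorylation genes and 0.126 for cytosolic ribosomal genes, both described below. The median was -0.11 for the members and -0.01 for all tested genes. With TMM factors the change was negative for 66 of the 78 members, against 51.1% of all tested genes, and with library totals it was negative for 34 and positive for 44. With TMM, every TP-18 tumor lay below every vehicle tumor for 28 members and above for none, against 17.8% and 18.0% of all tested genes. This was not counted with library totals, which FPKM uses. Of the named members among the 28, Mrpl2, Mrpl13, Mrpl16, Mrpl45, Mrpl52 and Mrpl53 had groups that met in FPKM. Those of Mrps18b, Mrpl23, Mrpl30 and Mrps30 stayed apart.

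The sign of the median depended on the scaling. A change of count scaling shifts all genes by nearly the same amount. The members' distance from other genes could therefore hardly change with it, and its steadiness across scalings tests nothing. Library totals moved the median of all tested genes to 0.13 and that of the members to 0.03. The members' median minus that of all tested genes was -0.10 with TMM, RLE size factors, upper-quartile scaling and library totals, and -0.06 on log2(FPKM + 1). This distance was -0.139 with no filter on low counts and -0.0889 with a filter at 1 CPM. It ran from -0.125 to -0.0762 when single tumors were left out. The TMM factors were 1.05, 1.03 and 1.07 for the TP-18 libraries, against 1.00, 0.938 and 0.918 for the vehicle libraries, so they differed with the treatment. Vehicle tumor 1 held the highest TMM-scaled value for 32 members, and TP-18 tumor 2 the lowest for 40.

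**Figure D3:**
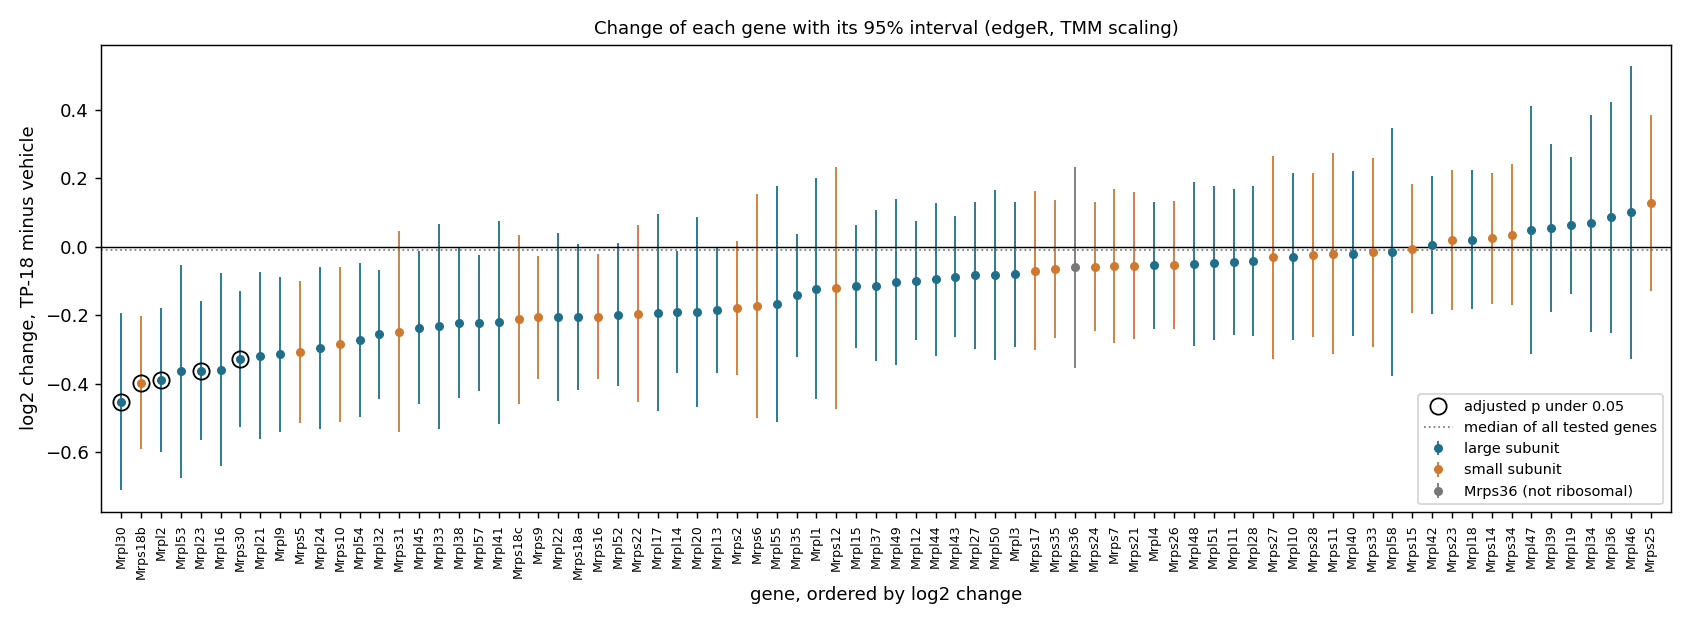
Log2 change of each of the 78 members, TP-18 minus vehicle, with its 95% interval (edgeR, TMM scaling), coloured by subunit; circles mark adjusted p under 0.05. With TMM, 66 points lie below 0 (34 with library totals), and the 5 circled genes are among the 7 most negative.

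By subunit, 4 of the 51 large-subunit members (7.84%) and 1 of the 26 small-subunit members (3.85%) were called lower. Of all tested genes 5.26% were called lower, which is near these shares. Median changes of the 2 subunits were -0.12 and -0.06 on the log2 scale with TMM. These medians were 0.03 and 0.08 with library totals. By origin, 4 of the 48 members of bacterial families (8.33%) and 1 of the 29 mitochondrial additions (3.45%) were called lower, against the same 5.26%. Their medians were -0.15 and -0.08 with TMM. With TMM, the only scaling on which this was counted, every TP-18 tumor lay below every vehicle tumor for 20 of the 48 members of bacterial families. The same held for 8 of the 20 additions to the large subunit and for none of the 9 additions to the small subunit, against 17.8% of all tested genes. The median change of these 9 was -0.03 with TMM. The ratio of summed counts of the large to the small subunit was 2.07, 2.11 and 2.10 in TP-18 tumors and 2.09, 2.19 and 2.23 in vehicle tumors, and vehicle tumor 1 lay within the TP-18 range. Differences between these classes were not tested.

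With TMM, mitochondrial ribosomal proteins that carry other names had a negative median, as the members did. With library totals theirs stayed negative, where the median of the members was 0.03. Of Dap3, Chchd1, Ptcd3, Aurkaip1 and Gadd45gip1, 5 in all, none was called by edgeR, DESeq2 or limma-voom, 3 were lower at an unadjusted p under 0.05, and the median change was -0.26 with TMM and -0.12 with library totals. Aurkaip1, a small-subunit protein, had 51.2, 55.7 and 52.3 CPM in TP-18 tumors, against 60.5, 59.6 and 75.6 CPM in vehicle tumors, at -0.30 ± 0.11 (edgeR adjusted p = 0.106). Dap3, a GTP-binding small-subunit protein, had 58.3, 55.3 and 52.6 CPM in TP-18 tumors and 58.1, 68.2 and 74.5 CPM in vehicle tumors, at -0.27 ± 0.10 (edgeR adjusted p = 0.122). With TMM, Aurkaip1 values were apart between the groups, and those of Dap3 met at TP-18 tumor 1 and vehicle tumor 1. The peptidyl-tRNA hydrolase Ict1 is listed under its newer symbol Mrpl58 and so is a member, at -0.02 ± 0.16 (edgeR adjusted p = 0.960).

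Of 27 genes for assembly of the mitochondrial ribosome, 2 were lower and none was higher in edgeR, DESeq2 or limma-voom, with 1 higher at an unadjusted p under 0.05. Ddx28, a helicase of large-subunit assembly, had 17.4, 19.5 and 19.4 CPM in TP-18 tumors, against 27.3, 25.5 and 22.9 CPM in vehicle tumors, at -0.43 ± 0.11 (edgeR adjusted p = 0.0388). Gtpbp6, a GTPase of large-subunit assembly and ribosome recycling, had 23.3, 25.8 and 25.3 CPM in TP-18 tumors, against 31.4, 30.4 and 32.7 CPM in vehicle tumors, at -0.35 ± 0.09 (edgeR adjusted p = 0.0385). The groups did not overlap for either gene. The median over the 27 was 0.04, and neither gene was called with library totals.

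None of 15 mitochondrial translation factors was called by edgeR or limma-voom, with 3 lower and 1 higher at an unadjusted p under 0.05 and 1 called higher by DESeq2. Closest to the threshold was Taco1, a translational activator of COX1 chosen here after its values were seen, with 10.1, 8.95 and 11.7 CPM in TP-18 tumors, against 7.43, 6.83 and 6.75 CPM in vehicle tumors, at 0.55 ± 0.15 (edgeR adjusted p = 0.0548). The 20 mitochondrial tRNA synthetases and amidotransferase subunits also had no call by edgeR or limma-voom, with 1 higher at an unadjusted p under 0.05 and 1 called lower by DESeq2. Medians were 0.04 and 0.03 for these 2 lists.

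Among 14 genes for mitochondrial transcription and biogenesis, 1 was higher and 1 was lower. Ppargc1b, a coactivator of mitochondrial biogenesis, had 6.61, 7.23 and 7.82 CPM in TP-18 tumors, against 4.58, 4.90 and 3.40 CPM in vehicle tumors, at 0.75 ± 0.20 (edgeR adjusted p = 0.0471). Myc, a transcription factor that drives ribosome production, had 135.8, 134.1 and 152.2 CPM in TP-18 tumors, against 266.6, 220.0 and 190.3 CPM in vehicle tumors, at -0.68 ± 0.13 (edgeR adjusted p = 0.0163). With library totals Ppargc1b was called and Myc was not, at -0.54 (edgeR adjusted p = 0.0524). Nrf1 and Gabpa, the genes of the factors whose motifs were searched, changed by -0.17 ± 0.07 (edgeR adjusted p = 0.175) and -0.06 ± 0.08 (edgeR adjusted p = 0.645).

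Cytosolic ribosomal protein genes gave larger changes than the mitochondrial ones, a difference between lists that was not tested. Of 85 tested cytosolic genes, 70 were lower by edgeR, 81 by DESeq2, 69 by limma-voom and 55 by edgeR with library totals, and 82 were lower at an unadjusted p under 0.05. An edgeR fit with a block for replicate number called only 9 lower. None was higher in any of these, and the median change was -0.56 with TMM and -0.41 with library totals. Their share of all counts was 8.47%, 7.76% and 7.89% in TP-18 tumors, against 9.52%, 11.04% and 11.1% in vehicle tumors. For each count of a mitochondrial ribosomal gene there were 31.8, 31.1 and 28.8 counts of cytosolic ones in TP-18 tumors, against 33.9, 43.2 and 43.2 in vehicle tumors. This ratio does not depend on the scaling, and the groups did not overlap, although vehicle tumor 1 stood nearer to the TP-18 tumors.

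**Figure D4:**
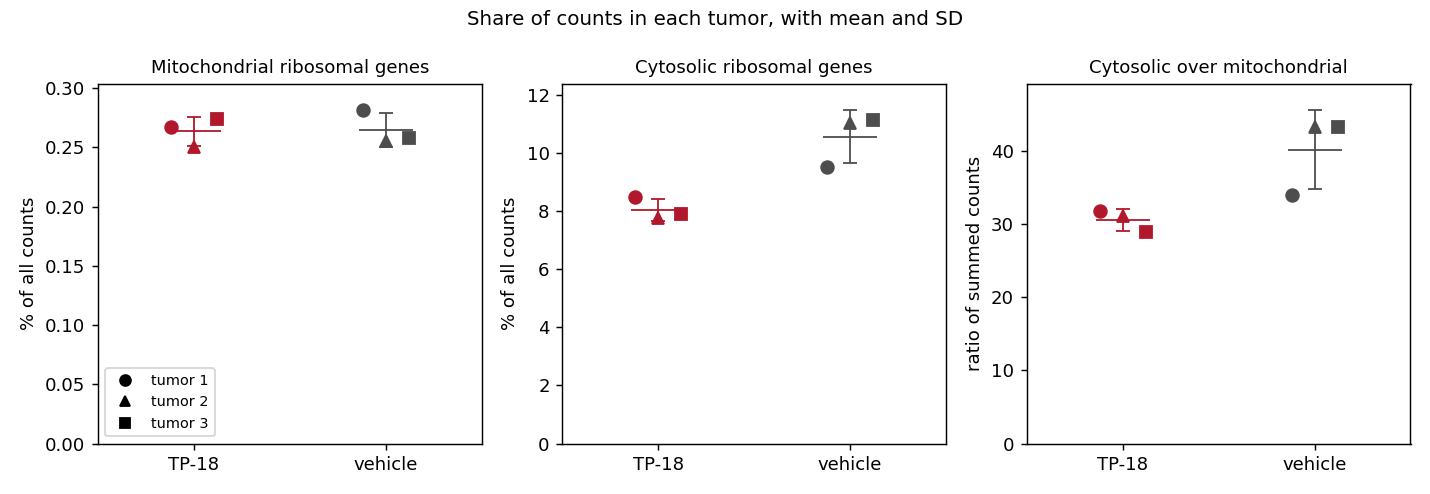
Share of all counts held by mitochondrial and by cytosolic ribosomal protein genes, in percent, and the ratio of the second to the first, with the 3 TP-18 tumors left and the 3 vehicle tumors right; horizontal marks with bars are means ± SD and axes start at 0. The mitochondrial shares overlap (0.250% to 0.273% in TP-18 tumors, 0.255% to 0.281% in vehicle tumors), and the cytosolic shares do not.

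Nuclear-encoded genes of oxidative phosphorylation, whose mitochondrial partners this ribosome makes, lay closer to the members. Of 85 tested, edgeR called 6 lower, as did DESeq2 and limma-voom, and 28 were lower at an unadjusted p under 0.05. None was higher by these tools or at an unadjusted p under 0.05. With library totals 2 were called lower, Uqcrq and Ndufa7, and the median was -0.04, against -0.18 with TMM. The 6 edgeR calls were Uqcrq of complex III, Ndufa7 and Ndufb11 of complex I, Cox6a1 and Cox6a2 of complex IV, and Cox7a2l, which joins complexes into supercomplexes. Their log2 changes ran from -1.13 ± 0.30 for Cox6a2, the muscle form, to -0.30 ± 0.08 for Cox6a1. Per count of a mitochondrial ribosomal gene there were 3.43, 3.43 and 3.37 counts of this list in TP-18 tumors and 3.28, 3.61 and 3.63 in vehicle tumors, and the groups overlapped.

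**Figure D5:**
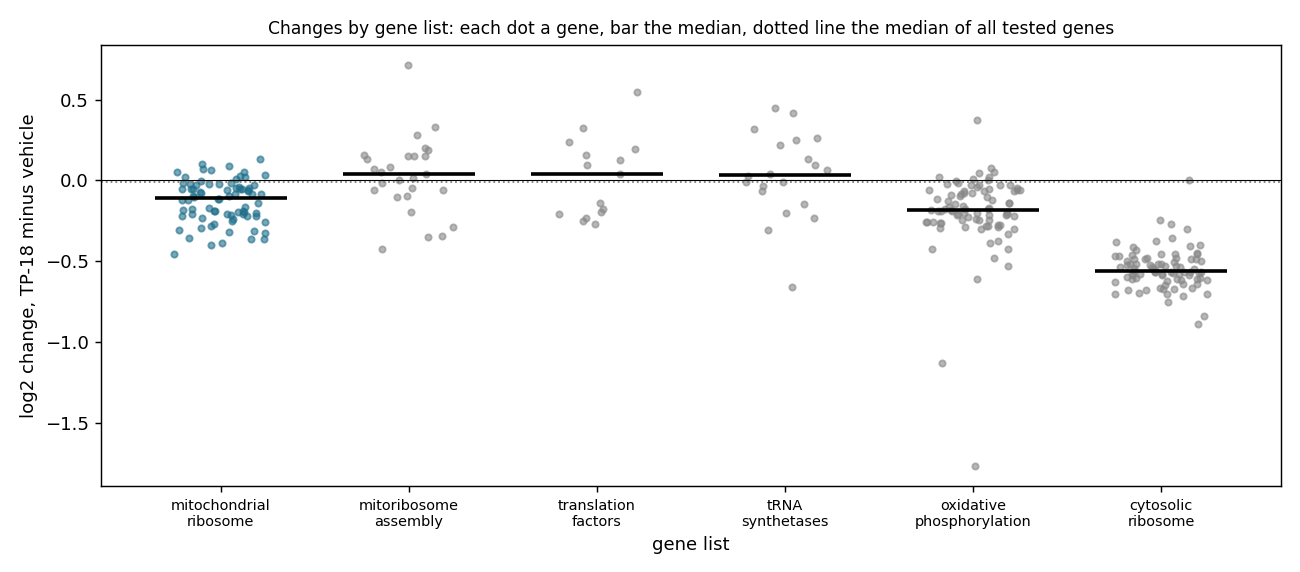
Log2 change of each tested gene, TP-18 minus vehicle (edgeR, TMM scaling), for 6 lists; bars are medians, and the dotted line is the median of all tested genes. The mitochondrial ribosomal genes have a median of -0.11 (0.03 with library totals), against -0.56 for the cytosolic ribosomal genes (-0.41 with library totals).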

How the data were processed

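Per the labels' protocols, TRIzol was used to extract tumor RNA and the VAHTS Universal V6 kit to build libraries. The submitters' processing notes name fastp, HISAT2, HTSeq and the build GRCm38. The sources used here state no tool version, no strandedness and no rule for reads that map to several places. The authors deposited whole-number counts per gene, not normalized, and an FPKM table, which proved to be each count divided by a fixed gene length and by the total of its library. Members, gene lists and tests were chosen with earlier results of these data known, so no set test was made.

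Counts of all genes were tested in R 4.3.3 with edgeR 4.0.16 (filterByExpr with minimum count 10 and minimum total 15, TMM, group as the model, robust quasi-likelihood F test, two-sided, Benjamini-Hochberg over 14189 genes, prior count 0.125). Log2 changes are TP-18 minus vehicle with SE from the F statistic, and TMM-scaled CPM are given per tumor. Named members are those called, the 3 highest and 3 lowest by FPKM, the 2 largest uncalled changes each way and 6 chosen for their roles; from other lists, called genes up to 6 by p. Neighbours, paralogs and other genes named outside this rule were chosen after their values were seen. Alternatives were other scalings and filters, DESeq2 1.42.0, limma 3.58.1 (voom, and trend on log2 FPKM with a pseudocount of 1 or 0.1 and a minimum FPKM of 0.1), a replicate block and leaving out each tumor. The patterns of other lists, and the 13 mitochondrial messenger RNAs, come from symbols. Positions are from GENCODE M21 and promoters from RefSeq GRCm38.p6; all 78 members matched both annotations. Replicate numbers name tumors and pair nothing in the labels. Libraries held 34813482 to 36489081 counts, which keeps counting error small; PCR copies cannot be recognized in these tables.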

Additional observations from a re-analysis of the deposited data

How the results depend on the processing

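The 5 calls became 0 under both FPKM fits, the replicate block and library totals without TMM factors (this last, and a fit without the cytosolic ribosomal genes, were chosen after seeing the data), and leaving out single tumors gave 0 to 6. Calls numbered 5 with RLE size factors, limma-voom, no filter and without the cytosolic ribosomal genes, 4 with upper-quartile scaling or a 1 CPM filter, and 7 with DESeq2, which shared all 5 and added Mrps5 and Mrpl9. No member was called higher in any fit. Same-numbered tumors deviated together with correlations of 0.242, -0.0834 and -0.0364, and TP-18 tumor 1 alone of the TP-18 tumors correlated best with its own number; the block left 547 genes higher and 231 lower over all genes, against 1006 and 747 without it. Over all genes, DESeq2 called 1469 higher and 1235 lower, library totals 1593 and 268, and the FPKM fits 1294 and 207 (pseudocount 1) or 1308 and 219 (pseudocount 0.1). Without single tumors the counts ran from 388 to 1216 higher and from 111 to 1023 lower. The members' median reversed to 0.036 with log2(FPKM + 1), 0.039 with log2(FPKM + 0.1) and 0.032 with library totals, and leaving out tumors gave -0.12 to -0.078.

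Uncalled members near 0 reversed sign. In the order log2(FPKM + 1), log2(FPKM + 0.1) and library totals, the log2 changes were 0.026, 0.034 and 0.026 for Mrpl1, 0.074, 0.089 and 0.087 for Mrpl4, 0.043, 0.044 and 0.045 for Mrpl12, 0.026, 0.028 and 0.019 for Mrps12, 0.076, 0.079 and 0.082 for Mrps36, and 0.087, 0.097 and 0.097 for Mrpl11. Leaving out single tumors gave -0.20 to 0.045 for Mrpl1, -0.087 to 0.0054 for Mrpl4, -0.012 to 0.31 for Mrpl46, -0.21 to 0.037 for Mrps12, -0.12 to 0.035 for Mrps36 and -0.10 to 0.012 for Mrpl11. Over all named genes and alternatives, 749 log2 changes kept direction and call, 203 kept direction and lost the call, 2 gained one and 25 reversed. The cause of these shifts was not tested, other than that fits without a tumor hold fewer samples.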

Other observations

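The messenger RNAs that the mitochondrial ribosome translates were also counted in these libraries. None of the 13 mitochondrial messenger RNAs was called by edgeR, DESeq2 or limma-voom, with 1 higher and 1 lower at an unadjusted p under 0.05, and their summed share of counts was 2.22%, 2.33% and 2.34% in TP-18 tumors and 2.98%, 2.07% and 1.88% in vehicle tumors. The TP-18 tumors lay close together, while vehicle tumor 1 was above them and the other vehicle tumors, at 2.07% and 1.88%, below.

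The counts of these 13 messages were uneven. The sources used here state no rule for reads that map to several places. These counts, and the summed share above, therefore need not follow the levels of the messages, which was not tested. COX1, of complex IV, had 10086 to 11936 TMM-scaled CPM in TP-18 tumors and 11897 to 14397 CPM in vehicle tumors, while the highest value of COX2, COX3 and ATP6, of the same genome, was 109.7 CPM, for COX3 in vehicle tumor 1.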
